A study of Homo sapiens with 18 samples.

Results

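CTLA4 and 9 further immune checkpoint genes were followed in 3 lymphoma cell lines given icaritin. The set holds the inhibitory receptor genes CTLA4, PDCD1, LAG3, HAVCR2, TIGIT and CD96, the ligand genes CD274 and PDCD1LG2, and the costimulatory receptor genes CD28 and ICOS. Each gene was found by its NCBI Gene ID, so the 10 genes are 10 of the 21662 IDs listed in any library. A filter on low counts left 14396 genes to test. It kept 9 of the 10 and left out PDCD1.

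The study used SNK-10 and the 2 SNT lines, SNT-8 and SNT-16, all labelled as NK/T cell lymphoma lines of WT genotype, and gave each DMSO or icaritin for 12 h. DMSO is a common solvent for small molecules, and icaritin is a prenylated flavonoid. There were 3 libraries in each of the 6 groups and 18 in all, each of total RNA, and the sources used here do not give the dose of icaritin. The labels do not tell whether the 3 libraries of a group were separate cultures, so the p-values measure the spread between these libraries, which may be technical.

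Checkpoint genes set how strongly a T cell or NK cell answers a target. CTLA4 is an inhibitory receptor that shares the ligands CD80 and CD86 with the costimulatory receptor CD28, and binds them more tightly. PD-1, the product of PDCD1, binds PD-L1 (CD274) and PD-L2 (PDCD1LG2). TIGIT and CD96 bind nectin-family proteins, LAG3 binds MHC class II, HAVCR2 encodes TIM-3, and ICOS is a costimulatory receptor related to CD28.

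CD28, CTLA4 and ICOS lie next to each other in that order on chromosome 2, and CD274 and PDCD1LG2 are neighbours on chromosome 9. The 250 bases before the start of CTLA4 (chr2:203867521-203867770, plus strand), ICOS (chr2:203936513-203936762, plus strand) and CD274 (chr9:5450292-5450541, plus strand) are shown because CTLA4 and ICOS are neighbours whose RNA moved in opposite directions, and because the direction for CD274 depended on the line. They are from RefSeq, assembly GRCh38.p14, and the build behind the deposited values is not stated. Capitals mark matches to the motifs given after the sequences.
CTLA4: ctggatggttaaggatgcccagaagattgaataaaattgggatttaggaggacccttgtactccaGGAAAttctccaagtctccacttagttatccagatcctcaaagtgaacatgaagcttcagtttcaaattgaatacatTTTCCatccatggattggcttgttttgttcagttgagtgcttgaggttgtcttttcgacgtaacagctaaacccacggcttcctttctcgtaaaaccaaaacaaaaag
ICOS: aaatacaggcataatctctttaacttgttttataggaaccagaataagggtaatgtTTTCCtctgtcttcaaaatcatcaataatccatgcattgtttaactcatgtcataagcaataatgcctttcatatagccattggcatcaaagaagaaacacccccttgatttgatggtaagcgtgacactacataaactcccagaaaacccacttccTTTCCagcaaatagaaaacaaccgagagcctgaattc
CD274: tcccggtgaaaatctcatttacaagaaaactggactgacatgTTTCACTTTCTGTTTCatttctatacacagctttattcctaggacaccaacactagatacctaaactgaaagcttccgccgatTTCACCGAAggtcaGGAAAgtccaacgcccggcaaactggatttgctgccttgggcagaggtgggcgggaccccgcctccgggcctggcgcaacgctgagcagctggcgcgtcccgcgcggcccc

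The motifs were searched on both strands as the NFAT core GGAAA, AP-1 TGANTCA, FOXO GTAAACA, the ATF4 element TGATGNAA, the STAT element TTCNNNGAA, the IRF element (GAAA and GAAA parted by any 2 bases) and the E-box CACGTG. The CTLA4 window held 2 NFAT cores, beginning 185 and 108 bases before the start, and none of the other motifs. The ICOS window also held NFAT cores only, at 194 and 37 bases. The CD274 window held 2 overlapping IRF elements at 208 and 202 bases, a STAT element at 125 bases and an NFAT core at 111 bases. Of 35116 promoter windows of this length, 55.6% held an NFAT core, 6.57% AP-1, 2.98% FOXO, 3.14% the ATF4 element, 6.57% the STAT element, 3.02% the IRF element and 6.34% the E-box. The NFAT core is thus present in most promoters, and the matches describe the letters of these windows only.

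The deposited FPKM values, which scale fragments to transcript length and library, are used here for levels, and the deposited expected counts for tests. The libraries held from 9526431 to 10100453 expected counts. The T and NK lineage markers summed to between 1372 and 3111 FPKM, with 11 or 12 of 14 at 1 FPKM or more in each group (TRDC and TRGC1 were in no library). CD3E, a subunit of the T cell receptor complex, had means of 245 FPKM in SNT-8, 193 in SNK-10 and 245 in SNT-16 with DMSO, while CD3D had 153, 18 and 137. Among markers of other cells, the 5 B cell genes summed to 0.3 to 2.11 FPKM, the 4 dendritic cell genes to 0.5 or less, and the 6 myeloid genes to 17.8 to 32.8. Within the myeloid sum, CD14 was at 0.21 FPKM or less in every library. FCGR3A had DMSO means of 0.0767 FPKM in SNT-8, 8.12 in SNK-10 and 0.0633 in SNT-16. The 4 epithelial genes summed to 1.95 to 3.66 FPKM, with EPCAM in no library, and the 4 fibroblast genes to 2.53 to 4.27. Among replicates, SNT-8 icaritin library 2 stood apart, with a chi-square per gene of 5.96 and 8.18 against its partners, which had 3.07 between them. SNK-10 icaritin library 3 had 3.40 and 4.13 against partners with 1.53 between them. Other replicate pairs ran from 1.37 to 2.46. Sampling noise alone would give about 1. The common coefficient of variation within groups, beyond counting noise, was 4.4%, so small changes could pass the tests.

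Baseline levels ordered the genes differently in the lines. In the DMSO libraries of SNT-8 the order by mean FPKM was LAG3, CD96, HAVCR2, ICOS, CD274, CTLA4, PDCD1LG2, TIGIT, CD28 and PDCD1. SNT-16 had the same order. In SNK-10 it was ICOS, TIGIT, CD96, HAVCR2, LAG3, CTLA4, CD274, PDCD1LG2, CD28 and PDCD1. Neighbours in these orders did not overlap in their 3 libraries, except TIGIT and CD28 in both SNT lines and ICOS and CD274 in SNT-16.

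Under DMSO, SNK-10 differed from SNT-8 in 5 of the 9 tested genes (CTLA4, TIGIT and ICOS higher, LAG3 and CD274 lower), where 57.6% of all tested genes differed (29.9% higher, 27.8% lower). SNK-10 differed from SNT-16 in 7 (the same 5 names, with CD96 and CD28 also higher), where 57.8% of all genes did (30.1% higher, 27.7% lower). SNT-8 differed from SNT-16 in 2 (CD96 higher, LAG3 lower), where 13.2% of all genes did (7.34% higher, 5.89% lower). Cell line cannot be told apart from the culture and library preparation of that line.

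**Figure D1:**
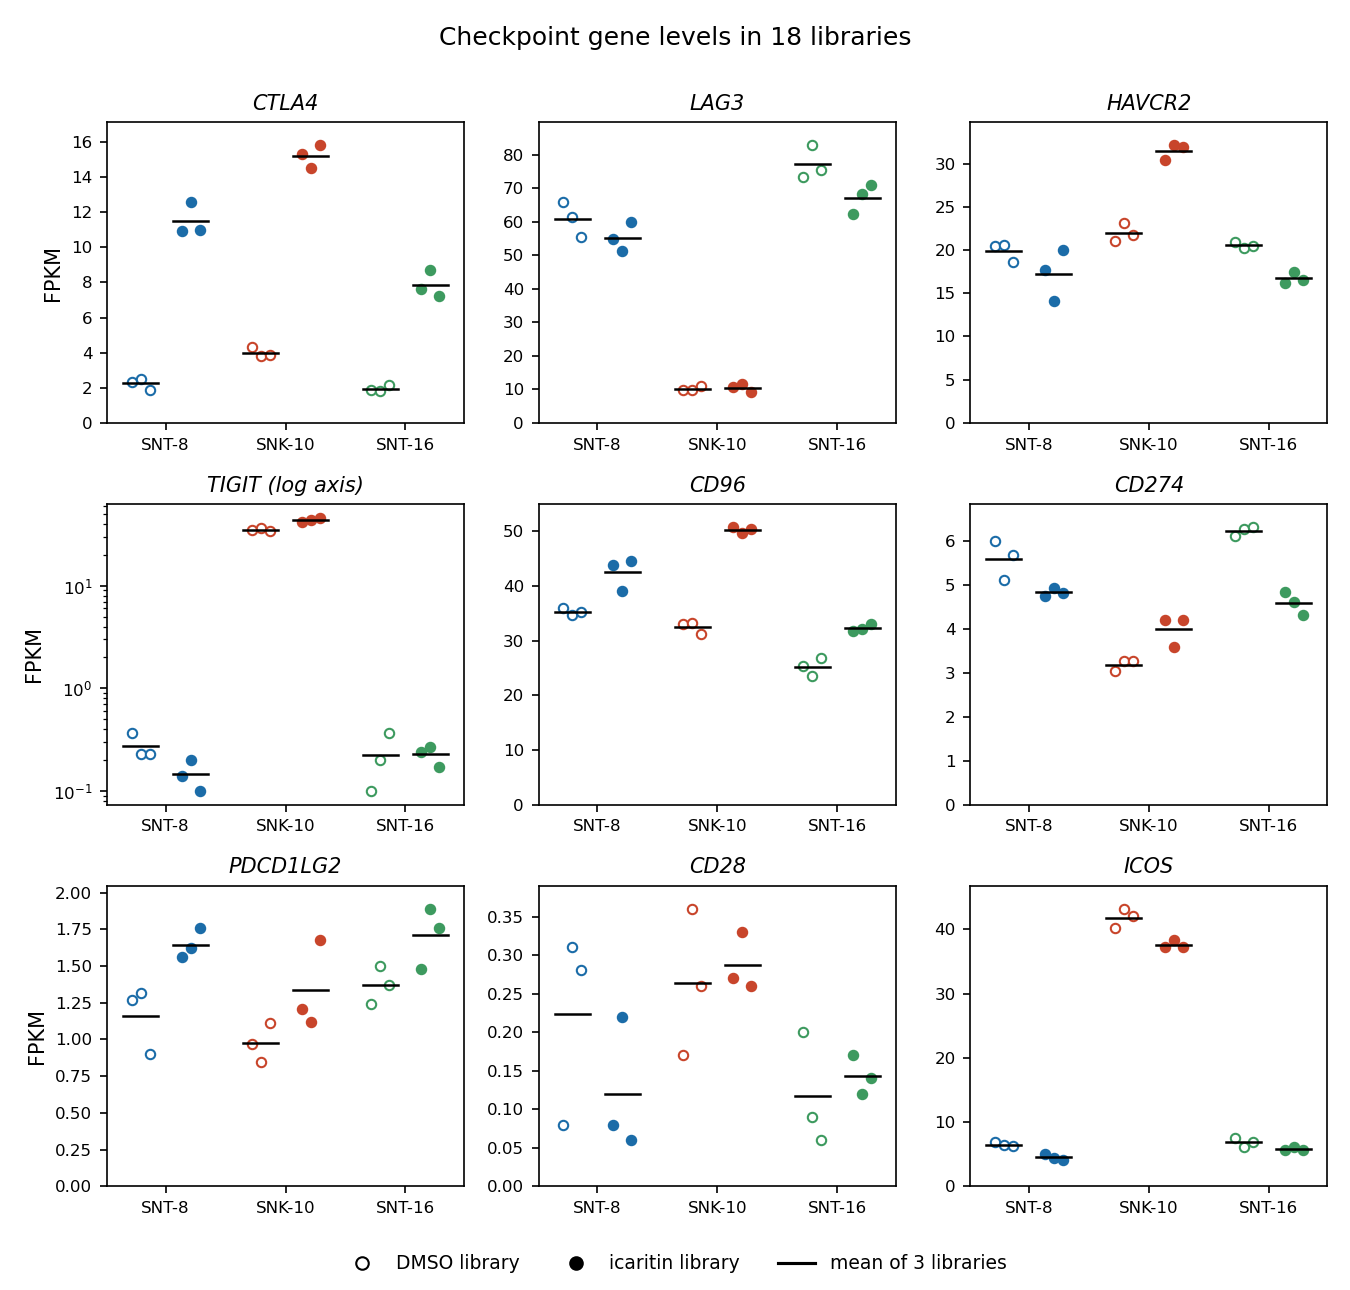
FPKM (vertical axes, from 0 except the log axis for TIGIT) of the 9 tested checkpoint genes in each library of the 3 lines, with open circles for DMSO, filled circles for icaritin and a bar for the mean of 3 libraries. CTLA4 is higher with icaritin in every line, and SNK-10 stands apart from the SNT lines for TIGIT, ICOS and LAG3.

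Icaritin raised CTLA4 3.91- to 4.96-fold in the 3 lines. In SNT-8, CTLA4 stood at 2.35, 2.52 and 1.90 FPKM in the DMSO libraries and at 10.93, 12.6 and 11 FPKM with icaritin. In SNK-10 it went from 4.30, 3.81 and 3.85 FPKM to 15.3, 14.49 and 15.8 FPKM. In SNT-16 it went from 1.90, 1.79 and 2.18 FPKM to 7.63, 8.70 and 7.24 FPKM. Every icaritin library was above every DMSO library of its own line, and the lowest icaritin library of any line was above the highest DMSO library of all.

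The log2 fold change of CTLA4 was 2.31 ± 0.128 (SE, n = 3 per group, 4.96-fold, adjusted p = 5.16e-18 by edgeR's quasi-likelihood test with Benjamini-Hochberg adjustment) in SNT-8. It was 1.97 ± 0.111 (3.91-fold, adjusted p = 8.35e-18) in SNK-10 and 1.98 ± 0.141 (3.94-fold, adjusted p = 1.05e-14) in SNT-16. The mean over the lines was 2.09 ± 0.0734. A difference in this response between the lines did not pass the test (adjusted p = 0.331), and the largest pairwise estimate, SNK-10 minus SNT-8, was -0.35 ± 0.181. The SNT-8 value was 2.23 without its icaritin library 2. In bulk RNA, more cells with CTLA4 RNA and more CTLA4 RNA per cell cannot be told apart.

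CTLA4 was also higher at baseline in SNK-10, by 0.84 ± 0.155 against SNT-8 (adjusted p = 1.19e-05) and by 1.08 ± 0.160 against SNT-16 (adjusted p = 2.31e-07) on the log2 scale. SNT-8 and SNT-16 overlapped under DMSO (log2 difference 0.24 ± 0.179, adjusted p = 0.434). With icaritin the order was SNK-10, SNT-8 and SNT-16, with mean levels of 15.2, 11.5 and 7.86 FPKM and no overlap between the libraries. These levels rested on 36.03 to 314.64 expected counts per library. The counts were not whole numbers in 17 of 18 libraries, so some fragments were shared out between this gene and other features by the authors' counting.

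**Figure D2:**
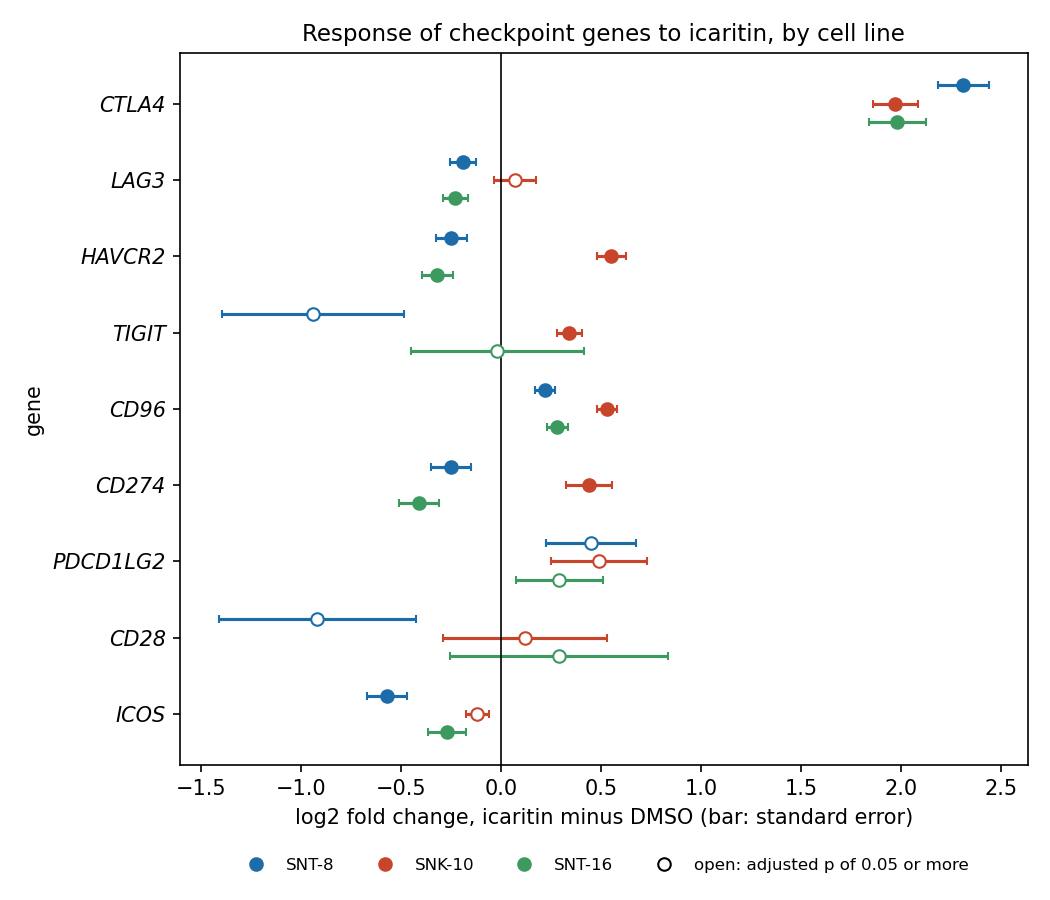
Log2 fold change with icaritin (horizontal axis, icaritin minus DMSO) of the 9 tested checkpoint genes, with 1 point per line and bars for the standard error; open points did not pass an adjusted p of 0.05. CTLA4 lies near 2 in all 3 lines, while HAVCR2 and CD274 lie above 0 in SNK-10 and below 0 in the SNT lines.

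In SNT-8, 2 of the 9 tested genes rose with icaritin (CTLA4, CD96) and 4 fell (LAG3, HAVCR2, CD274, ICOS), where 49.1% of all tested genes changed (24% rose, 25% fell). In SNK-10, 5 rose (CTLA4, HAVCR2, TIGIT, CD96, CD274) and none fell, where 48.4% of all genes changed (24.4% rose, 24% fell). A fit of the SNK-10 libraries alone made 1 call lower there, ICOS. In SNT-16, the 2 that rose and the 4 that fell bore the same names as in SNT-8, where 42% of all genes changed (21.2% rose, 20.8% fell). The median log2 change of the 9 was -0.25 in SNT-8, 0.44 in SNK-10 and -0.02 in SNT-16, beside 0.02, 0.01 and 0.02 over all tested genes.

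PDCD1, the gene of PD-1, was all but unread. One fragment was listed in SNT-8 DMSO library 1 (0.05 FPKM), and the gene was not listed in the other 17 libraries and was taken as 0 there. A count of 0 allows up to 3 counts, which is 0.14 to 0.149 FPKM in these libraries. PDCD1 was therefore not detectable above that level, and no response could be tested. Such limits cover counting error only.

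LAG3, an inhibitory receptor of the CD4 family, was lower in SNK-10 than in both SNT lines. Its DMSO levels were 65.92, 61.3 and 55.61 FPKM in SNT-8, 9.77, 9.73 and 10.98 FPKM in SNK-10, and 73.46, 82.8 and 75.39 FPKM in SNT-16. SNK-10 lay far below both SNT lines with no overlap, by -2.57 ± 0.0827 against SNT-8 (adjusted p = 2.74e-24) and -2.87 ± 0.0813 against SNT-16 (adjusted p = 6.30e-26) on the log2 scale. SNT-8 was below SNT-16 by a smaller -0.30 ± 0.0639 (adjusted p = 0.00134).

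The response of LAG3 was small. With icaritin its levels were 54.77, 51.25 and 59.95 FPKM in SNT-8, 10.64, 11.51 and 9.21 FPKM in SNK-10, and 62.27, 68.21 and 70.87 FPKM in SNT-16. The 2 treatments overlapped in SNT-8 and SNK-10 and not in SNT-16. LAG3 fell by 0.19 on the log2 scale in SNT-8 (SE 0.0655, adjusted p = 0.0174) and by 0.23 in SNT-16 (SE 0.0635, adjusted p = 0.00406), and the change in SNK-10 was 0.07 (SE 0.106, adjusted p = 0.614). The SNT-8 call was lost without DMSO library 1, icaritin library 1 or icaritin library 2 (adjusted p = 0.154, 0.0533 and 0.0884), and the SNT-16 call without DMSO library 2 or icaritin library 1 (adjusted p = 0.0508 and 0.0557). Neither call passed with limma on log2(FPKM + 0.1) (adjusted p = 0.195 and 0.0699).

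HAVCR2, the gene of TIM-3, rose in SNK-10 and fell in both SNT lines. In SNK-10 it went from 21.05, 23.12 and 21.73 FPKM with DMSO to 30.39, 32.11 and 31.97 FPKM with icaritin. In SNT-8 it went from 20.51, 20.56 and 18.67 FPKM to 17.69, 14.16 and 20.01 FPKM, and in SNT-16 from 20.98, 20.19 and 20.45 FPKM to 16.15, 17.52 and 16.57 FPKM. The groups were apart in SNK-10 and SNT-16, and overlapped in SNT-8, where icaritin library 3 lay within the DMSO range and library 2 lay lowest.

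The log2 change of HAVCR2 was 0.55 ± 0.0715 in SNK-10 (adjusted p = 2.65e-08), -0.25 ± 0.0773 in SNT-8 (adjusted p = 0.00619) and -0.32 ± 0.0776 in SNT-16 (adjusted p = 8.71e-04). The test of a difference between lines gave an adjusted p of 4.90e-08. The SNK-10 response exceeded that of SNT-8 by 0.81 ± 0.105 (adjusted p = 1.02e-06) and that of SNT-16 by 0.87 ± 0.106 (adjusted p = 1.71e-07). Without SNT-8 icaritin library 2, the SNT-8 change was -0.14 and no longer passed (adjusted p = 0.118). Under DMSO, SNK-10 differed from SNT-8 and from SNT-16 by 0.15 each, which did not pass (adjusted p = 0.0811 and 0.0774). HAVCR2 counts were not whole in any of 18 libraries, and their split with other features is uncertain.

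TIGIT, an inhibitory receptor for PVR and NECTIN2, was read at high level in SNK-10 only. Its DMSO levels there were 35.31, 36.3 and 34.35 FPKM, and the icaritin levels were 41.9, 43.28 and 46.07 FPKM, with no overlap. The 12 SNT libraries held 0.10 to 0.37 FPKM, from 3 to 11 counts each. Under DMSO, SNK-10 exceeded SNT-8 by 6.98 ± 0.136 (127-fold, adjusted p = 7.15e-34) and SNT-16 by 7.31 ± 0.141 (159-fold, adjusted p = 4.61e-34) on the log2 scale.

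Icaritin raised TIGIT in SNK-10 by 0.34 ± 0.0618 on the log2 scale (adjusted p = 1.31e-05). With limma on log2(FPKM + 0.1) the value was 0.31 and did not pass (adjusted p = 0.329). In the SNT lines the changes were -0.94 ± 0.454 (SNT-8, adjusted p = 0.0839, or 0.0491 with limma on log2(FPKM + 0.1)) and -0.02 ± 0.432 (SNT-16, adjusted p = 0.981), too few counts to tell. The test of a difference between lines did not pass for TIGIT (adjusted p = 0.107), and passed with limma on log2(FPKM + 1) (adjusted p = 0.0329). Adding 1 to SNT values that lie well below 1 shrinks any change there, so that pass is no separate support.

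CD96, a nectin-binding relative of TIGIT, rose in all 3 lines, most in SNK-10. It went from 36.0, 34.66 and 35.17 FPKM to 43.77, 39.15 and 44.59 FPKM in SNT-8. It went from 33.09, 33.24 and 31.25 FPKM to 50.76, 49.66 and 50.39 FPKM in SNK-10, and from 25.4, 23.47 and 26.73 FPKM to 31.74, 32.13 and 33.05 FPKM in SNT-16. No icaritin library overlapped the DMSO libraries of its line.

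On counts, the log2 change of CD96 was 0.22 ± 0.05 in SNT-8 (adjusted p = 3.87e-04), 0.53 ± 0.05 in SNK-10 (adjusted p = 1.62e-11) and 0.28 ± 0.0530 in SNT-16 (adjusted p = 2.58e-05). The responses differed between lines (adjusted p = 0.00356). SNK-10 exceeded SNT-8 by 0.31 ± 0.0707 (adjusted p = 0.00237) and SNT-16 by 0.24 ± 0.0729 (adjusted p = 0.0215). The call against SNT-16 was lost without SNK-10 DMSO library 3 (adjusted p = 0.0678), SNT-16 DMSO library 3 (0.0990) or SNT-16 icaritin library 2 (0.0609). CD96 overlaps ZBED2 in the annotation, which had a mean of 105 counts beside 1189 for CD96, and its deposited length ran from 3099.83 to 3496.1 bases with the mix of 4 transcripts, so FPKM folds and count folds of CD96 are not the same.

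CD274, the gene of PD-L1, rose in SNK-10 and fell in the SNT lines, as HAVCR2 did. Its levels in SNK-10 were 3.03, 3.26 and 3.26 FPKM with DMSO and 4.20, 3.58 and 4.20 FPKM with icaritin. In SNT-8 they were 5.99, 5.10 and 5.67 FPKM with DMSO and 4.74, 4.93 and 4.81 FPKM with icaritin. In SNT-16 they were 6.10, 6.26 and 6.31 FPKM with DMSO and 4.84, 4.61 and 4.32 FPKM with icaritin. The treatments did not overlap in any line, and SNK-10 was lowest at baseline and remained below the SNT lines with icaritin by mean level (3.99 FPKM against 4.83 and 4.59). The deposited length of CD274 ran from 3052.16 to 3691 bases with the mix of 4 transcripts, so its FPKM folds and count folds are not the same.

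The log2 change of CD274 was 0.44 ± 0.116 in SNK-10 (adjusted p = 0.00164), -0.25 ± 0.0990 in SNT-8 (adjusted p = 0.0309) and -0.41 ± 0.0997 in SNT-16 (adjusted p = 8.36e-04). The responses differed between lines (adjusted p = 2.25e-04), with SNK-10 above SNT-8 by 0.70 ± 0.152 (adjusted p = 0.00171) and above SNT-16 by 0.85 ± 0.153 (adjusted p = 1.21e-04). The SNT-8 call was lost in DESeq2 (adjusted p = 0.0766), with upper quartile scaling (0.0533), with limma on log2(FPKM + 0.1) (0.0599), and without DMSO library 1 (0.151), DMSO library 3 (0.0767), icaritin library 1 (0.0770) or icaritin library 3 (0.0724). Under DMSO, CD274 was lower in SNK-10 by -0.94 ± 0.108 against SNT-8 (adjusted p = 9.73e-10) and -0.97 ± 0.108 against SNT-16 (adjusted p = 3.86e-10).

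PDCD1LG2, the gene of PD-L2, was low throughout, at 20 to 45 counts. Its levels were 1.27, 1.32 and 0.90 FPKM with DMSO and 1.56, 1.62 and 1.76 FPKM with icaritin in SNT-8. They were 0.97, 0.85 and 1.11 FPKM and then 1.21, 1.12 and 1.68 FPKM in SNK-10, and 1.24, 1.5 and 1.37 FPKM and then 1.48, 1.89 and 1.76 FPKM in SNT-16. The icaritin libraries lay above those with DMSO in SNT-8 and SNK-10 and overlapped them in SNT-16.

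No single line passed the test for PDCD1LG2 (0.45, 0.49 and 0.29 on the log2 scale, adjusted p = 0.0947, 0.0936 and 0.305 in SNT-8, SNK-10 and SNT-16), and the mean over the lines did (0.41 ± 0.132, adjusted p = 0.00681). With limma on log2(FPKM + 0.1) the SNT-8 change passed (0.48, adjusted p = 0.0295). The ratio of CD274 to PDCD1LG2 in FPKM had a median of 4.17 over the 9 DMSO libraries (2.94 to 6.3) and 3.04 over the 9 icaritin libraries (2.44 to 3.47). By line, its medians went from 4.72 to 3.04 in SNT-8, from 3.12 to 3.20 in SNK-10 and from 4.61 to 2.45 in SNT-16. CD274 thus stayed the more abundant of the 2 ligand RNAs per length in all 18 libraries.

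CD28, the costimulatory counterpart of CTLA4, was barely read, at 0.06 to 0.36 FPKM and 2.62 to 16.43 counts, none of them whole. No line passed the test for icaritin (log2 changes of -0.92 ± 0.492, 0.12 ± 0.411 and 0.29 ± 0.545, adjusted p = 0.123, 0.843 and 0.714 in SNT-8, SNK-10 and SNT-16). Under DMSO, CD28 was higher in SNK-10 than in SNT-16 by 1.26 ± 0.485 (adjusted p = 0.0243), a call lost in DESeq2 (adjusted p = 0.0551), with limma on log2(FPKM + 0.1) (0.0577), and without SNK-10 DMSO libraries 2 or 3 (0.119 and 0.0606) or SNT-16 DMSO libraries 2 or 3 (0.0934 and 0.122). The SNT-8 change with icaritin did pass without DMSO library 1 (-1.35, adjusted p = 0.0184) or icaritin library 2 (-1.60, adjusted p = 0.0250). The ratio of CTLA4 to CD28 in FPKM ran from 6.79 to 36.3 over the 9 DMSO libraries (median 14.8) and from 43.9 to 183 over the 9 icaritin libraries (median 57.3), with no overlap. CTLA4 alone parted the same libraries, so the parted ratios are no separate support. The highest ratios were in SNT-8 icaritin libraries 3 and 1, with CD28 at 2.78 and 3.91 counts. The RNA of the inhibitory receptor exceeded that of the costimulatory one per length in all 18 libraries.

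ICOS, a costimulatory receptor, was the most abundant of the 10 genes in SNK-10 under DMSO, and fell in the SNT lines. In SNT-8 it went from 6.84, 6.47 and 6.21 FPKM to 5.02, 4.47 and 4.12 FPKM. In SNT-16 it went from 7.50, 6.18 and 6.97 FPKM to 5.66, 6.14 and 5.60 FPKM, and in SNK-10 from 40.22, 43.22 and 42.14 FPKM to 37.34, 38.29 and 37.29 FPKM. The icaritin libraries lay below the DMSO libraries in each line, in SNT-16 by little, with 6.14 FPKM as the highest of one and 6.18 FPKM as the lowest of the other.

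The log2 change of ICOS was -0.57 ± 0.0991 in SNT-8 (adjusted p = 7.35e-06), -0.27 ± 0.0939 in SNT-16 (adjusted p = 0.0187) and -0.12 ± 0.0570 in SNK-10 (adjusted p = 0.0795), with a mean of -0.32 ± 0.0493 (adjusted p = 4.65e-07). The SNK-10 change passed when its libraries were fitted alone (-0.13, adjusted p = 0.0258). The SNT-16 call was lost without DMSO library 1 (adjusted p = 0.123), DMSO library 3 (0.0526), icaritin library 1 (0.0717) or icaritin library 3 (0.0590). The responses differed between lines (adjusted p = 0.0169), with SNK-10 above SNT-8 by 0.45 ± 0.114 (adjusted p = 0.00701). That test of the lines was lost with limma on log2(FPKM + 0.1) (adjusted p = 0.069) or log2(FPKM + 1) (0.0887), and without SNT-8 DMSO library 1 (adjusted p = 0.0591) or icaritin library 3 (0.0666). Under DMSO, SNK-10 exceeded SNT-8 by 2.70 ± 0.0717 (6.48-fold, adjusted p = 2.10e-29) and SNT-16 by 2.66 ± 0.0713 (6.33-fold, adjusted p = 2.57e-29).

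Of the 3 neighbouring genes on chromosome 2, CTLA4 thus rose in all lines, ICOS fell in 2 of them and CD28 stayed too low to judge. The 2 printed promoter windows of CTLA4 and ICOS share the NFAT core, which most promoters hold. Across the 9 tested genes the response differed between lines for 4, HAVCR2, CD96, CD274 and ICOS, where 14.3% of all tested genes did. SNK-10 responded above SNT-8 in these 4 (10.8% of all genes differed, 6.69% above and 4.08% below) and above SNT-16 in HAVCR2, CD96 and CD274 (12.5% differed, 6.74% above and 5.77% below). SNT-8 and SNT-16 were not found to differ in any of the 9, where 0.438% of all genes did (0.174% above, 0.264% below).

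Over the mean of the 3 lines, 3 of the 9 rose (CTLA4, CD96, PDCD1LG2) and 2 fell (LAG3, ICOS), where 61.7% of all genes changed (31.7% rose, 30% fell). The fall of LAG3 on this mean was -0.11 ± 0.0466 (adjusted p = 0.0341). It was lost when any of 8 single libraries was left out, as the closing section lists. The call was also lost with upper quartile scaling (adjusted p = 0.0518) and with limma on log2(FPKM + 0.1) or log2(FPKM + 1) (0.0848 and 0.0739).

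The ligands of CTLA4 went different ways. CD80 stood at 31.24, 28.26 and 31.23 FPKM with DMSO and at 73.55, 96.32 and 74.2 FPKM with icaritin in SNT-8. It went from 34.11, 33.66 and 29.98 FPKM to 56.37, 54.4 and 59.62 FPKM in SNK-10, and from 37.42, 35.6 and 36.79 FPKM to 76.25, 70.74 and 73.12 FPKM in SNT-16. All icaritin libraries were above all DMSO libraries, and SNT-8 icaritin library 2 was the highest. The log2 change of CD80 was 1.38 ± 0.0975 in SNT-8, 0.84 ± 0.0991 in SNK-10 and 0.98 ± 0.0963 in SNT-16 (adjusted p = 5.88e-09, 3.08e-06 and 4.42e-07), and 1.23 in SNT-8 without that library.

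CD86, the second ligand, fell slightly in each line. Its mean levels went from 35.7 to 32.6 FPKM in SNT-8, from 37.2 to 30.8 FPKM in SNK-10 and from 37.4 to 34.4 FPKM in SNT-16, without overlap. The log2 changes were -0.19, -0.24 and -0.14 (adjusted p = 0.00176, 1.32e-04 and 0.0224). The SNT-16 call was lost without its DMSO library 1 (adjusted p = 0.0678) or icaritin library 1 (0.110).

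**Figure D3:**
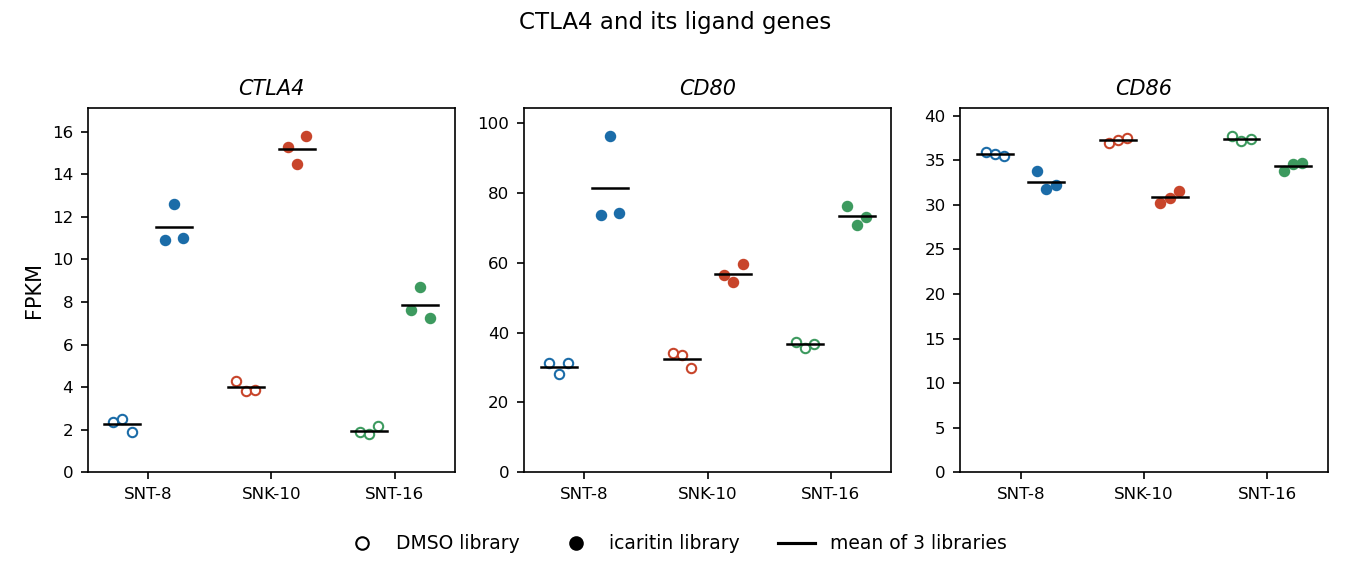
FPKM (vertical axes from 0) of CTLA4 and its ligand genes CD80 and CD86 in each library of the 3 lines, with open circles for DMSO, filled circles for icaritin and a bar for the mean of 3 libraries. CTLA4 and CD80 are higher with icaritin in every line, and CD86 is slightly lower.

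Of the ligand genes of other members, ICOSLG was read in SNK-10 only, and PVR and NECTIN2 were low. LGALS9, given below, was read in all lines. ICOSLG, the ligand of ICOS, was listed in none of the 12 SNT libraries and was taken as 0 there, and in SNK-10 it went from 1.32, 1.07 and 1.46 FPKM to 3.76, 2.85 and 2.99 FPKM with icaritin (log2 change 1.38 ± 0.212, adjusted p = 2.23e-06). The SNK-10 DMSO level was at least 13.4-fold higher than the 3 counts per library that a count of 0 allows in SNT-16, and ICOSLG has an annotated near-identical copy that may share its fragments. PVR, a ligand of TIGIT and CD96, was at 0.03 to 0.38 FPKM and passed in no line (adjusted p = 0.897, 0.858 and 0.537). NECTIN2 was at 0.15 FPKM or less and was not tested.

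LGALS9, the gene of galectin-9, a proposed ligand of TIM-3, rose in SNK-10 from a mean of 11.9 to 19.2 FPKM (log2 change 0.75 ± 0.0937, adjusted p = 1.12e-08). The changes in SNT-8 (4.60 to 4.36 FPKM, -0.17 ± 0.138, adjusted p = 0.337) and SNT-16 (5.13 to 4.07 FPKM, -0.26 ± 0.138, adjusted p = 0.127) did not pass; SNT-16 did with limma on log2(FPKM + 0.1) (-0.34, adjusted p = 0.0266) or without its icaritin library 1 (-0.42, adjusted p = 0.0249). The responses differed between lines (adjusted p = 7.87e-06). LGALS9 has the near copies LGALS9B and LGALS9C, and its counts were whole in no library, so its split is uncertain.

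**Figure D4:**
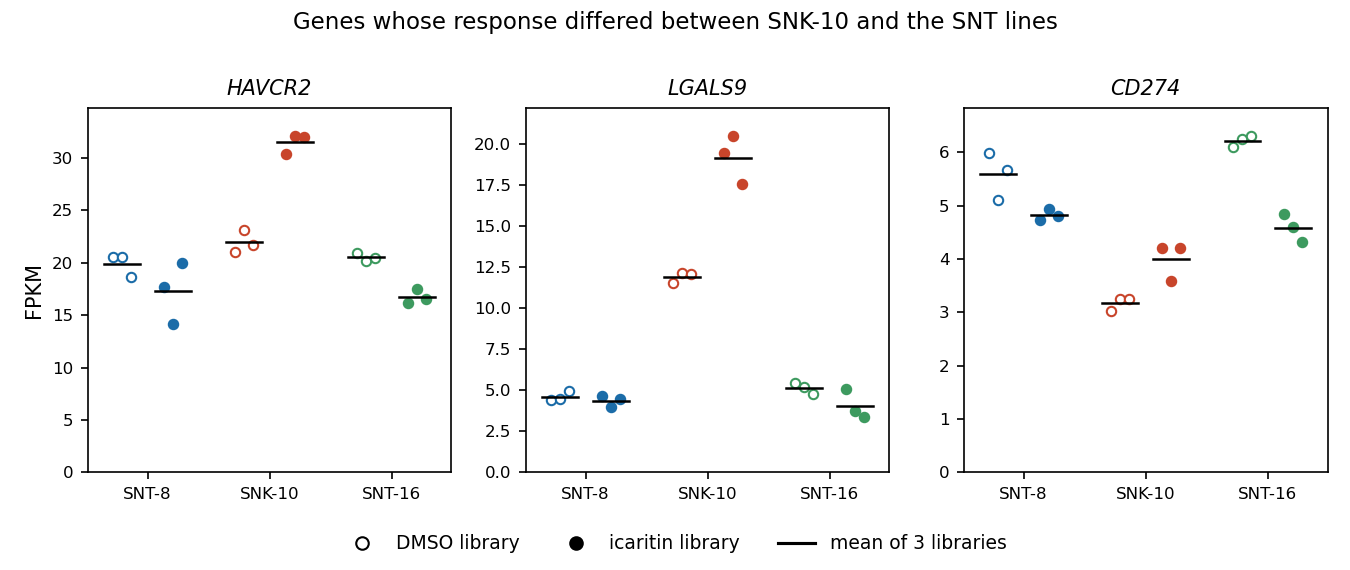
FPKM (vertical axes from 0) of HAVCR2, LGALS9 and CD274 in each library of the 3 lines, with open circles for DMSO, filled circles for icaritin and a bar for the mean of 3 libraries. The icaritin libraries lie above DMSO in SNK-10 for all 3 genes, and not in SNT-8 or SNT-16.

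Among the 15 tested of 20 ligand and counter-receptor genes, 5 rose and 4 fell in SNT-8, 8 rose and 4 fell in SNK-10, and 6 rose and 4 fell in SNT-16, with median log2 changes of 0.00, 0.23 and 0.10. Over all tested genes 24% rose and 25% fell in SNT-8, 24.4% and 24% in SNK-10, and 21.2% and 20.8% in SNT-16, with medians of 0.02, 0.01 and 0.02, and these stand beside the counts of all 4 lists. Beside CD80, the leading genes were HHLA2, a B7-family ligand (0.49, 0.48 and 0.58 in SNT-8, SNK-10 and SNT-16), CEACAM1, an adhesion molecule reported to bind TIM-3 (1.53, 0.75 and 1.52), and CD48, the ligand of CD244 (-0.53, -0.32 and -0.44). Each of these 3 passed in all lines. They were named for the smallest p of the mean over the same lines, so these passes are no separate support. For CEACAM1 the response of SNK-10 minus that of SNT-8 was -0.78 ± 0.193 (adjusted p = 0.0112).

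Among the 19 tested of 24 other inhibitory and costimulatory receptor genes, 4 rose and 6 fell in SNT-8, 5 rose and 1 fell in SNK-10, and 4 rose and 5 fell in SNT-16, with medians of -0.21, -0.05 and -0.11. Of all tested genes, 49.1%, 48.4% and 42% changed in SNT-8, SNK-10 and SNT-16. LAIR1, an inhibitory collagen receptor, rose by 1.14, 0.62 and 1.21 on the log2 scale in SNT-8, SNK-10 and SNT-16. CD2, the receptor of CD58, changed by -0.60, -0.52 and -0.43. ENTPD1, the ectonucleotidase CD39, rose by 0.40, 0.16 and 0.19, and SLAMF7, a SLAM-family receptor, changed by -0.54, 0.08 and -0.35, where only the SNK-10 value did not pass (adjusted p = 0.239). The ENTPD1 call was lost in SNK-10 without DMSO library 3 or icaritin library 2 (adjusted p = 0.0938 and 0.0595), and in SNT-16 without DMSO library 2, DMSO library 3 or icaritin library 2 (adjusted p = 0.0793, 0.0582 and 0.0737). In mean FPKM, ENTPD1 went from 12.5 to 18.8 in SNT-8, from 20.7 to 31.1 in SNK-10 and from 10.8 to 13.7 in SNT-16, without overlap. These rises are larger than the count folds of 1.32, 1.12 and 1.14, so the 2 measures of ENTPD1 differ in size. LAIR1, CD2, ENTPD1 and SLAMF7 were named for the smallest p of the mean over the same lines, so their passes are no separate support.

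Among the 30 tested of 31 trafficking and proximal signalling genes, 9 rose and 10 fell in SNT-8, 11 rose and 8 fell in SNK-10, and 9 rose and 10 fell in SNT-16, with medians of -0.00, 0.13 and 0.02, beside the same 49.1%, 48.4% and 42% of all genes that changed. CMTM6, whose protein keeps PD-L1 on the cell surface, rose in each line, from 54.1 to 70.2 FPKM in SNT-8, from 70.1 to 96.3 FPKM in SNK-10 and from 54.3 to 73.5 FPKM in SNT-16 (0.33, 0.49 and 0.41 on the log2 scale). CD274 itself rose with it in SNK-10 alone. CBLB, an E3 ubiquitin ligase that restrains T cell activation, rose by 0.56, 0.70 and 0.61. CSK, the kinase that holds Src-family kinases inactive, changed by -0.55, -0.35 and -0.54, and the exchange factor VAV1 by -0.73, -0.25 and -0.51. CMTM6, CBLB, CSK and VAV1 were named for the smallest p of the mean over the same lines, so these changes are no separate support.

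Among the 31 tested of 34 genes of transcription factors linked to checkpoint genes, 8 rose and 13 fell in SNT-8, 15 rose and 7 fell in SNK-10, and 6 rose and 15 fell in SNT-16, with medians of -0.10, 0.23 and -0.21. Of all tested genes, 24%, 24.4% and 21.2% rose and 25%, 24% and 20.8% fell in SNT-8, SNK-10 and SNT-16. The response of SNK-10 was above that of SNT-8 in 14 and below it in 1, and above that of SNT-16 in 16 and below it in 1, where 6.69% and 6.74% of all tested genes were above and 4.08% and 5.77% below. TBX21, the gene of T-bet, changed by -1.44, -0.87 and -1.23 on the log2 scale, from 33.4 to 12.7 FPKM in SNT-8, from 17.7 to 9.47 FPKM in SNK-10 and from 37 to 16 FPKM in SNT-16. TOX2, of the TOX family linked to T cell exhaustion, rose by 0.69, 1.10 and 0.62, PRDM1, the gene of Blimp-1, by 0.52, 0.72 and 0.47, and the forkhead factor FOXO3 by 0.89, 1.16 and 0.80. All 12 of these values passed the test. The genes were named for the smallest p of the mean over the same lines, so these passes are no separate support.

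**Figure D5:**
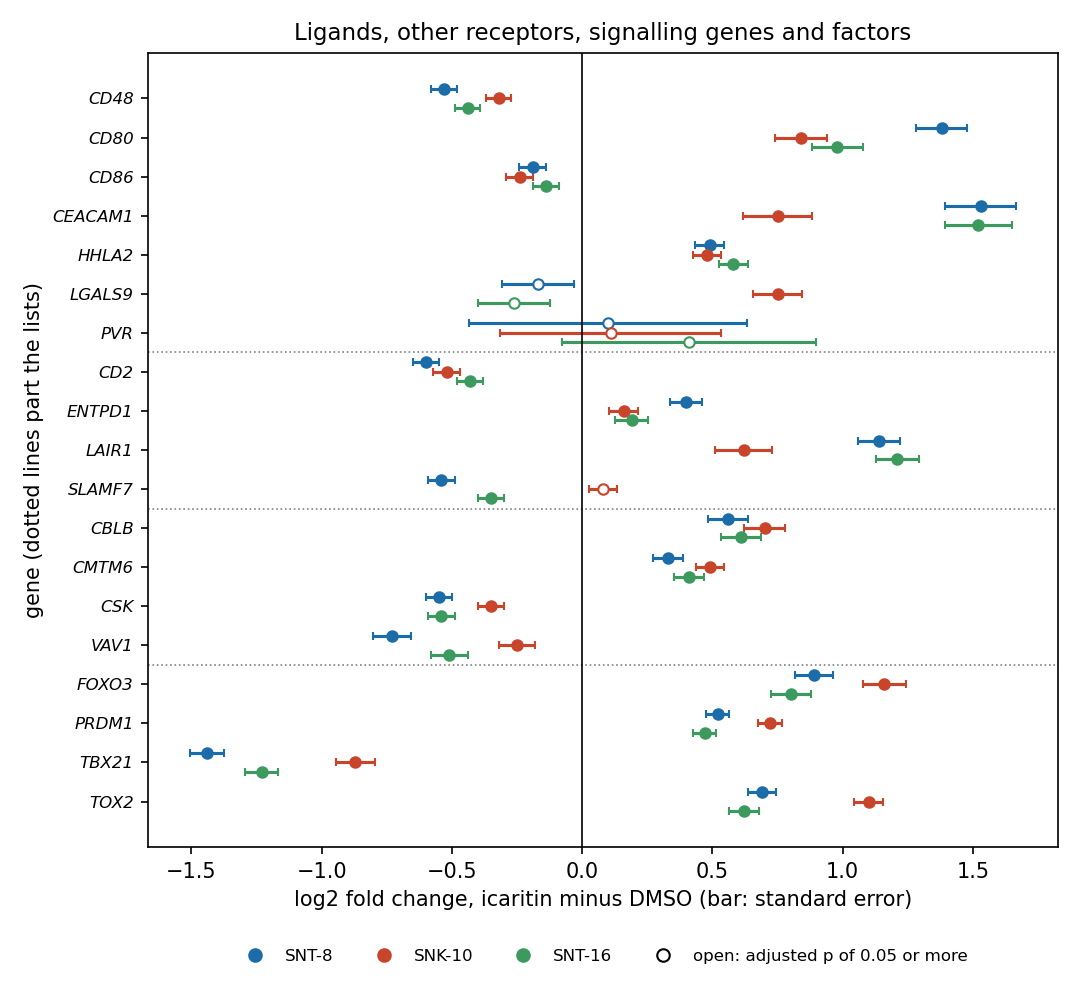
Log2 fold change with icaritin (horizontal axis, icaritin minus DMSO) of the named genes of 4 lists, from top to bottom ligands, other receptors, signalling genes and transcription factors, with 1 point per line and bars for the standard error; open points did not pass an adjusted p of 0.05. CD80, CEACAM1 and LAIR1 lie to the right in all lines and TBX21 to the left.

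Genes with a pattern most like CTLA4 over the 6 group means were found by the root mean square difference in log2 CPM among 9332 genes, each centred on its own mean. They were MXD1 (0.30), HDAC5 (0.37), PELI1 (0.44), SLC1A4 (0.44) and GADD45A (0.45). With icaritin MXD1 changed by 1.82, 1.81 and 1.61 on the log2 scale in SNT-8, SNK-10 and SNT-16, and GADD45A by 2.26, 1.56 and 1.89. HDAC5 changed by 1.63, 1.52 and 1.41, PELI1 by 1.34, 1.18 and 1.16, and SLC1A4 by 1.38, 0.92 and 1.45. A rise in each line follows from the choice of these genes by likeness to CTLA4, which rose in each line. The nearest gene was at 0.16 for LAG3 (NT5C3B), 0.06 for HAVCR2 (CDKN2D), 0.21 for TIGIT (CRIM1), 0.07 for CD96 (INPP4B) and 0.08 for CD274 (GALNT6). It was at 0.04 for PDCD1LG2 (MDM4), 0.13 for CD28 (PLTP) and 0.13 for ICOS (SLC25A23). CTLA4 had the most distant nearest gene of the 9, and these distances rest on 6 points per gene.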

How the data were processed

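RNA-seq of 18 libraries was analysed as 6 groups of 3 (cell line by treatment, from the labels). Per the submitters' processing notes HISAT and Bowtie2 were used; no source used here gives versions, genome build or counting tool. The authors deposited expected counts, which are estimated fragments per gene, and FPKM, per the file headers, with a transcript length per gene. Of the expected counts, 60.3% to 61.6% per library were whole within 0.005. A gene not listed in a library was taken as 0. Depth was 9526431 to 10100453 expected counts, which limits genes of few counts such as CD28.

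Expected counts were rounded and tested with edgeR 4.0.16 (R 4.3.3) by a robust quasi-likelihood fit over all libraries with TMM scaling, after filterByExpr (minimum count 10, minimum total 15). Tests were two-sided with Benjamini-Hochberg adjustment over 14396 genes and a threshold of 0.05. Standard errors were taken from each F statistic, as the size of the log2 change over the root of F. The tests were run on simulated data first. Levels are deposited FPKM. Alternatives were DESeq2 1.42.0, limma 3.58.1 on log2(FPKM + 0.1) or log2(FPKM + 1), other scalings, no filter, a fit that was not robust, single-line fits, a replicate block and each library left out.

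The 10 genes, 4 lists and rules were chosen with earlier results of these data known. Named list genes are up to 4 tested genes per list with the smallest p of the mean over the lines, plus CD80, CD86, ICOSLG, PVR, NECTIN2 and LGALS9. Symbols and promoters came from RefSeq tables (GRCh38.p14): 21559 of 21662 IDs matched by ID, 24 by transcript and 79 not at all. Replicate numbers showed no sign of pairing the samples. Deviations from the group mean correlated at -0.06 to 0.06 between same-numbered libraries of a line, and at -0.06 to 0.07 between differently numbered ones. Correlations this small cannot tell whether the samples were paired.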

Additional observations from a re-analysis of the deposited data

Results flagged for a closer look

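The response to icaritin differed between the lines, by the edgeR test of the difference itself, for 4 of the checkpoint genes: HAVCR2 (adjusted p = 4.90e-08), CD274 (adjusted p = 2.25e-04), CD96 (adjusted p = 0.00356) and ICOS (adjusted p = 0.0169). The log2 changes in SNK-10 were 0.55 against -0.25 and -0.32 for HAVCR2, 0.44 against -0.25 and -0.41 for CD274, 0.53 against 0.22 and 0.28 for CD96, and -0.12 against -0.57 and -0.27 for ICOS (SNT-8 first, then SNT-16). For ICOS, SNK-10 differed from SNT-8 but the difference from SNT-16 did not pass (0.15 ± 0.11, adjusted p = 0.442). The ICOS test between lines did not pass with either limma fit (adjusted p = 0.069 and 0.0887), nor without SNT-8 DMSO library 1 (0.0591) or SNT-8 icaritin library 3 (0.0666). Among the named ligand and receptor genes the same test gave adjusted p = 7.87e-06 for LGALS9, 3.15e-07 for SLAMF7, 0.00526 for LAIR1, 0.00895 for CEACAM1 and 0.0314 for CD80, a call lost when any of 8 single libraries was left out (adjusted p from 0.0508 to 0.0792). Among signalling genes and factors it gave adjusted p = 4.14e-05 for TOX2, 4.13e-04 for TBX21, 0.00307 for VAV1 and 0.0089 for PRDM1, which did not pass without SNK-10 DMSO library 1 (adjusted p = 0.0514). Over all tested genes, 14.3% passed this test.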

How the results depend on the processing

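Of the single-gene values under alternatives, 3649 kept direction and side of the threshold, 66 lost the call, 19 gained it and 9 turned sign. Of the counts and ratios 1450 stayed within 1.5 times or 1 SD and 43 moved. Many of these alternatives left out a library of a group outside the comparison, so the numbers that stayed overstate how stable the values are. The 9 that turned sign had not passed: TIGIT in SNT-16 (0.09 and 0.01 with limma on log2(FPKM + 0.1) and log2(FPKM + 1), 0.52 without DMSO library 3, 0.14 without icaritin library 3, and from -0.36 to 0.52 over the libraries left out), CD28 in SNK-10 (-0.11 without DMSO library 1, up to 0.34), PVR in SNK-10 (-0.13 without icaritin library 3, up to 0.37) and PVR in SNT-8 (-0.03 with limma on log2(FPKM + 0.1), -0.18 without DMSO library 2, -0.71 without icaritin library 1, up to 0.55). Checkpoint genes called lower were 1 in SNK-10 when fitted alone, against 0 in the joint edgeR fit, 4 in SNT-8 in the joint fit, 3 with DESeq2, upper quartile scaling or limma on log2(FPKM + 0.1), and 2 with limma on log2(FPKM + 1), and 1 on the mean of the lines with limma on log2(FPKM + 0.1) or upper quartile scaling, against 2 in the joint fit. The 3 in SNT-8 with limma on log2(FPKM + 0.1) were not all among the 4 of the joint fit. There LAG3 and CD274 lost the call (adjusted p = 0.195 and 0.0599) and TIGIT gained it (-0.61, adjusted p = 0.0491). On the mean of the lines, LAG3 lost the call with limma on log2(FPKM + 1) too (-0.10, adjusted p = 0.0739). Other receptors called lower in SNK-10 were 1 in the joint fit and 3 and 5 with limma, and those called higher in SNT-8 were 4 in the joint fit, 2 with DESeq2 and from 3 to 6 under the other settings that left out no SNT-8 library. The CD274 to PDCD1LG2 medians from expected counts, with no length scaling, were 6 and 4.38. Genes whose response differed between SNT-8 and SNT-16 numbered 63, but 110 with DESeq2, 9 with each limma fit and 279 with no filter. The cause was not tested.

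Leaving out single libraries, checkpoint genes called lower ranged from 2 to 4 in SNT-8 and in SNT-16 (2 without icaritin library 1 of that line), and from 1 to 2 on the mean of the lines. There LAG3 was lost without SNK-10 DMSO library 3, SNK-10 icaritin libraries 1 or 3, SNT-16 DMSO library 2, SNT-16 icaritin library 1, SNT-8 DMSO library 1, or SNT-8 icaritin libraries 1 or 2. Other receptors called in SNK-10 ranged from 3 to 5 higher (3 without icaritin library 2) and 1 to 2 lower (2 without DMSO or icaritin library 1), and in SNT-8 from 2 to 4 higher (2 without DMSO library 2 or icaritin library 1). Ligands called lower in SNT-16 ranged from 2 (without DMSO library 1) to 4, and the genes differing between SNT-8 and SNT-16 from 17 (without SNT-16 icaritin library 2) to 178 (without SNT-8 icaritin library 2). CD80's difference between lines was lost without any of 8 libraries.

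The replicate block left the count of checkpoint genes called as it was in every comparison, and all genes called went from 7062 to 6847 in SNT-8, 6970 to 6788 in SNK-10 and 6051 to 5819 in SNT-16. With the block, the difference between lines for CD80 no longer passed (adjusted p = 0.09). Depth limits CD28, PVR, PDCD1 and, in the SNT lines, TIGIT.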
